A study of Homo sapiens with 32 samples.

Results

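The HOX cluster genes encode homeodomain transcription factors. They were taken as every gene symbol made of HOX, a cluster letter from A to D and a number. This gave 39 of the 25559 symbols in the count tables: 11 in HOXA on chromosome 7, 10 in HOXB on chromosome 17, 9 in HOXC on chromosome 12 and 9 in HOXD on chromosome 2. HOX genes lie in the order in which they are used along the body axis, and genes with the same number in different clusters are paralogs. In blood formation, members at the 3′ and central end of HOXA and HOXB are known for their activity in stem and progenitor cells, and HOXA genes for high expression in some T-cell leukemias. Polycomb complexes and DNA methylation are known for keeping HOX genes silent, Trithorax complexes for keeping them active, and TALE proteins of the PBX and MEIS families bind DNA together with HOX proteins.

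RNA was sequenced from 4 human T-cell lines kept for 96 hours with the histone deacetylase inhibitor romidepsin, the DNA methyltransferase inhibitor azacitidine, both drugs or neither. PF382 comes from T-cell acute lymphoblastic leukemia, HH and H9 from cutaneous T-cell lymphoma, and TLOm1 from adult T-cell leukemia. Azacitidine, given daily, was at 125, 250 and 500 nM in PF382 and TLOm1 and at 50, 125 and 250 nM in HH and H9, each dose without and with romidepsin, giving 32 libraries, 1 per line and condition. Romidepsin, given once, was at 1.25 nM in PF382 and 1 nM in TLOm1 and H9, and in HH at 1 nM alone but 1.25 nM in the combinations, so that in HH the drug pairing and the romidepsin dose cannot be told apart. Each line descends from a single patient's tumour and each condition was a single library, so the lines served as the replicates (n = 4) and nothing measures the spread between cultures of a line.

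Library totals ran from 16175077 to 32496676 counts, and 1 count in the untreated PF382 library was 0.0436 CPM, a count scaled to the library's total. T-cell markers were present in all 4 lines, with 14 of 14 at 10 or more counts in untreated PF382, 13 in H9, 10 in HH and 9 in TLOm1. CD7 was under 10 counts in untreated TLOm1 and HH. Every library correlated best with another library of its own line (32 of 32). Because these are bulk samples, a lower level can mean fewer expressing cells or less RNA per cell, and these cannot be told apart.

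Of the 39 HOX genes, 29 reached 10 counts in at least 1 untreated library and 36 did so in at least 1 of the 32 libraries. HOXB1, HOXC12, HOXD9 and HOXD10 had 0 counts in the 4 untreated libraries, which allows up to 3 counts each. No member was at 0 in all 32. The low-count filter kept 34 members for testing among 17801 genes. It left out HOXB1, HOXC5, HOXC12, HOXD1 and HOXD3, whose counts over all 32 libraries summed to 5, 88, 8, 40 and 60.

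Promoter sequences were matched for 20 of the 39 members in RefSeq (GRCh38.p14, a later build than the GRCh37.p2 named for the counts). The 5 shown are the 250 bases before the start, on the gene's strand, for 4 members that rose with treatment (HOXD11, HOXD13, HOXA10, HOXA11) and for HOXA9, which was not called over the 4 lines. CpG dinucleotides, the sites that DNA methyltransferases methylate, are in capitals.
HOXD11, chr2:176107030-176107279, plus strand: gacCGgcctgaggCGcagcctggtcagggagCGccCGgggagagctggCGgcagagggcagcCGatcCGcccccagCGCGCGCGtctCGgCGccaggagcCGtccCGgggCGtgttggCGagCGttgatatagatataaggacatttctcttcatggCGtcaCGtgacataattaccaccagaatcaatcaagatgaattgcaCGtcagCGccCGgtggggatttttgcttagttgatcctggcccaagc
HOXD13, chr2:176092471-176092720, plus strand: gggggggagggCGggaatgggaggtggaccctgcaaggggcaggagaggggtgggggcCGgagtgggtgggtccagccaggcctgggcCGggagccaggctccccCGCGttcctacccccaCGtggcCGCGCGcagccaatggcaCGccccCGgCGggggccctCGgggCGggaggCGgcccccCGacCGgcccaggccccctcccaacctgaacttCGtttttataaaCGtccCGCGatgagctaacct
HOXA10 (the more 5′ of its 2 listed starts), chr7:27179862-27180111, minus strand: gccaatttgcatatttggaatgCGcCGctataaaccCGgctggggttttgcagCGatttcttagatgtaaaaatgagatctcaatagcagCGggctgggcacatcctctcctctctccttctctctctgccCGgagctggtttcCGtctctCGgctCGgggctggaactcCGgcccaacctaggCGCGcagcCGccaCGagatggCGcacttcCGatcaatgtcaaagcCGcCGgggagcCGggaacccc
HOXA11, chr7:27185233-27185482, minus strand: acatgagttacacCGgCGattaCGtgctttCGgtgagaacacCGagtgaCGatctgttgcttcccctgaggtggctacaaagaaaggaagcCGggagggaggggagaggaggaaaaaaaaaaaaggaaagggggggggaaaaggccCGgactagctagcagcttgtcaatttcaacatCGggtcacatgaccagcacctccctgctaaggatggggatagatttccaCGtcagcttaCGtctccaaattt
HOXA9, chr7:27165538-27165787, minus strand: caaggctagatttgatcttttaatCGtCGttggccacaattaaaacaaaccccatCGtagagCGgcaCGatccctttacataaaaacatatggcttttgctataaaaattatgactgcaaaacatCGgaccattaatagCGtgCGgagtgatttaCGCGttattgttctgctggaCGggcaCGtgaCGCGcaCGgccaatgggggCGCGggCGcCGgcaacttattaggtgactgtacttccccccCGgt

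These printed stretches held 23 CpG in HOXD11, 21 in HOXD13, 19 in HOXA10, 11 in HOXA11 and 20 in HOXA9. CpG were also counted over windows of 300 bases, which add 50 bases after the start. The 27 HOX windows had a median of 22 CpG, against 14 over all 35116 windows. HOXA3 gave several of the 27. Of HOXB only HOXB1 was matched, and of HOXC only HOXC4 and HOXC5, which share the same window. The HOXB and HOXC members called with both drugs at 250 nM are thus not included. HOXA11, with 13 CpG in its window, was matched or exceeded by 51.7% of all windows, and HOXD11, with 27, by 28.2%. The motif TATAAA, searched on both strands, was in 5 of the 27 HOX windows (18.5%) and in 11.5% of all windows. The printed members that rose over the lines and HOXA9 overlapped in CpG number. HOXA9 was itself called higher with romidepsin in the fit of PF382, so it is not an unchanged member. DNA methylation was not measured here.

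Each line had its own untreated HOX pattern. The test for a line difference over all 8 treatments called 34 of 34 tested members, where 98.1% of all tested genes were called, so this share is that of genes in general. In that test the 8 treatments of a line stood in for replicates. A call is therefore about the libraries of a line, not about donors or about untreated levels alone. Levels of different genes are compared here per kilobase of transcript, from the untreated libraries, with no test.

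H9 carried the most HOXA RNA. The summed HOXA level was 94.9 CPM in untreated H9, 28.6 in TLOm1, 6.11 in PF382 and 0.452 in HH. In H9 all 11 HOXA members reached 10 counts, and HOXA10, a posterior-type gene of blood progenitors, was the highest per length at 22.9 CPM per kilobase and gave 52.5% of the cluster's counts. HOXA10 had 1300 counts in untreated H9 and 0 in each of the other untreated lines. In TLOm1, HOXA7 was the highest at 11.5 CPM per kilobase and gave 81.4% of HOXA counts. PF382 was led by HOXA5 at 1.40 CPM per kilobase. No HOXA member reached 10 counts in untreated HH. HOXA3 overlaps HOXA4, HOXA5 and HOXA6 in the annotation, so the counts of these members, here and below, may not be separable.

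HOXB was the most abundant cluster in TLOm1, HH and PF382. Its summed untreated level was 254 CPM in TLOm1, 152 in HH, 56.8 in H9 and 32.6 in PF382. HOXB9 was the highest per length in TLOm1 at 67.6 CPM per kilobase and in HH at 44.6, with 4296 and 2796 counts. The same gene had 81 counts in H9 and 4 in PF382, so the 4 lines split into a high and a low pair. HOXB3 led per length in PF382 at 8.18 CPM per kilobase and in H9 at 11.2. HOXB4, a regulator of blood stem cells, was expressed in all 4 lines: 270 counts in PF382, 308 in TLOm1, 191 in HH and 596 in H9. HOXB3 spans HOXB4 in the annotation, so reads of these 2 may be divided by the counting rule.

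HOXC and HOXD were low. Summed HOXC was 10.1 CPM in untreated TLOm1, 8.82 in H9, 0.567 in PF382 and 0.0411 in HH. HOXC4 led in TLOm1 with 175 counts and in H9 with 129, and its single count was the only HOXC count in untreated HH. In PF382, HOXC6 and HOXC10 had 4 counts each. HOXC4, HOXC5 and HOXC6 overlap in the annotation, so their counts may not be separable. Summed HOXD was 2.57 CPM in PF382, 1.75 in TLOm1, 1.27 in H9 and 0.0411 in HH. HOXD8 led in PF382 with 28 counts and in H9 with 18, and HOXD4 in TLOm1 with 27 counts. HOXD4 overlaps HOXD3 in the annotation, so the same limit holds for their counts. HOXD13, the most 5′ member of the cluster, had 25 counts in PF382, 12 in H9 and 0 in TLOm1 and HH.

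**Figure D1:**
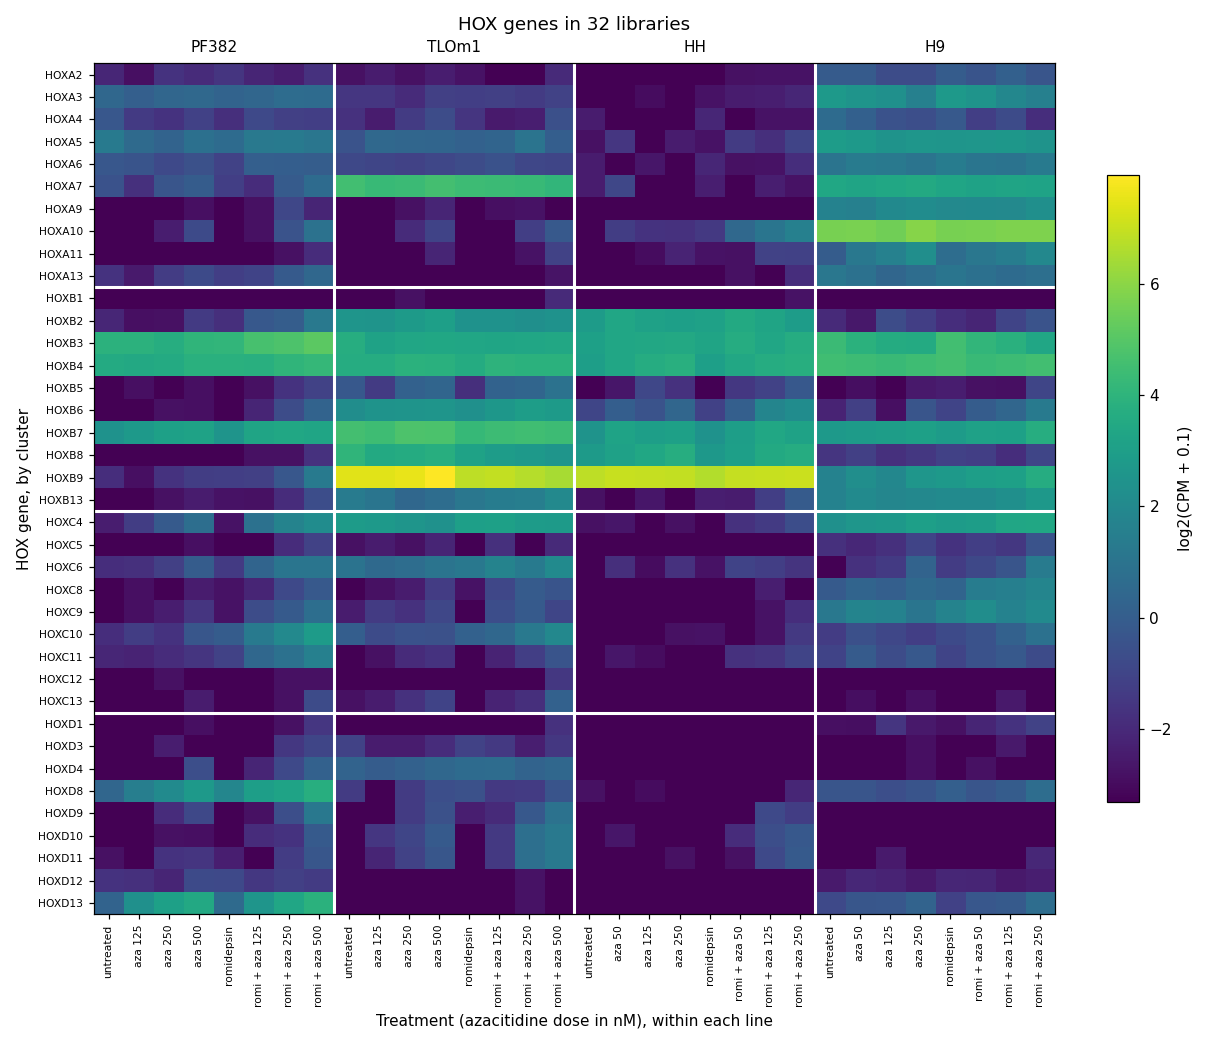
Level of the HOX genes (rows, by cluster) in the 32 libraries (columns, by line and treatment), as log2(CPM + 0.1) in colour. HOXB9 is brightest in TLOm1 and HH, HOXA10 in H9, and the HOXC and HOXD rows gain colour toward the right of the PF382 and TLOm1 blocks.

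The heatmap of HOX levels shows that much of the visible change lay in members that were at or near 0 without drug. In untreated PF382, 10 HOX genes reached 10 counts, and 28 did so with both drugs and azacitidine at 500 nM. The same numbers were 17 and 25 in TLOm1. With azacitidine at 250 nM in the combination they went from 7 to 14 in HH and from 22 to 26 in H9. Romidepsin alone left them at 9 in PF382, 17 in TLOm1, 7 in HH and 21 in H9.

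**Figure D2:**
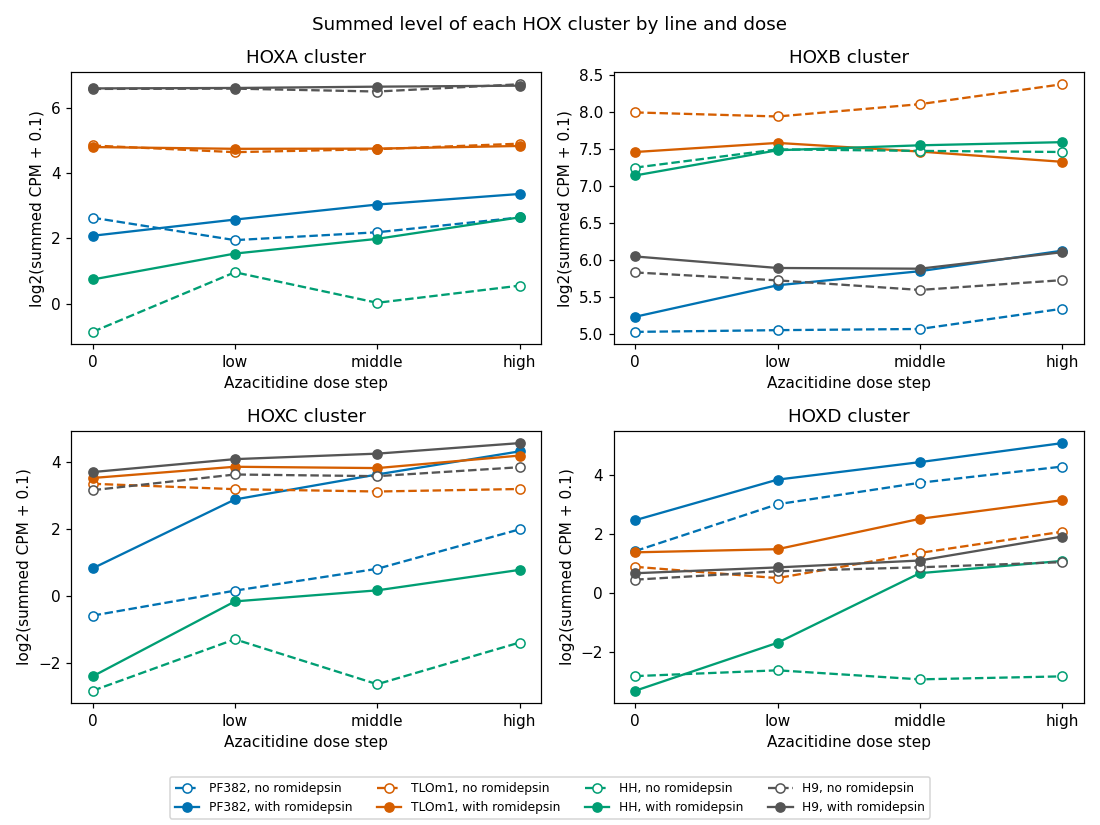
Summed level of each cluster as log2(summed CPM + 0.1) against the azacitidine dose step of the line (low, middle, high), without romidepsin (open, dashed) and with it (filled, solid), 1 library per point. HOXC and HOXD of PF382 and HH climb furthest with both drugs, HOXA of H9 and TLOm1 is flat, and HOXB of TLOm1 is lower with romidepsin than without.

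The summed levels by dose put these changes on the scale of whole clusters. HOXD in PF382 went from 2.57 CPM untreated to 19.4 with azacitidine at 500 nM and 33.8 with both drugs. HOXC in PF382 was 0.567 untreated, 1.67 with romidepsin, 3.87 with azacitidine at 500 nM and 19.8 with both. HOXD in HH was 0.0411 CPM untreated, 0.0403 with azacitidine at 250 nM and 2.02 with both drugs. HOXA in H9 was 94.9 CPM untreated and 102 with both drugs at 250 nM. The same 2 values were 28.6 and 26.7 in TLOm1, 6.11 and 8.10 in PF382, and 0.452 and 6.15 in HH. Sums are given as descriptions, without a test.

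Romidepsin alone called no HOX gene over the 4 lines. With edgeR's quasi-likelihood test, 0 of 34 members passed an adjusted p of 0.05, and 0 had an unadjusted p under it; DESeq2 and limma-voom also called 0. Over all genes 0.0169% were called higher and 0% lower. Azacitidine at 125 nM called 0 of 34 as well, with 3 at an unadjusted p under 0.05 (HOXA4, HOXA11 and HOXD13) and 0 called by either other tool. The share over all genes was 0.365% higher and 0.0955% lower.

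Azacitidine at 250 nM raised 2 members, HOXD13 and HOXA11, and lowered none of the 34, where 3.85% of all genes rose and 2.14% fell. The median log2 change of the 34 members was 0.36, against 0.02 over all genes. HOXD9 and HOXD10, at 0 in the untreated libraries, were at or under the floor of 3 counts per library on average with azacitidine at 250 nM, and the median without them was 0.28. Neither of the 2 calls was made by DESeq2.

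HOXD13, a limb and genital patterning gene named here after its values were seen, was called for azacitidine in PF382 and not in H9, and the test of equal effects in the lines was not passed (edgeR, adjusted p = 0.279). In PF382 it had 25 counts untreated and 30 with romidepsin, then 128, 201 and 277 with azacitidine at 125, 250 and 500 nM, and 139, 241 and 353 when romidepsin was added to these doses. H9 had 12 counts untreated and 8 with romidepsin, then 21, 19 and 30 at 50, 125 and 250 nM, and 18, 23 and 34 in the combinations. HH was at 0 in all 8 libraries and TLOm1 had a single count in 1 of 8. All 6 libraries with azacitidine lay above both libraries without it in PF382 and in H9. The log2 change at 250 nM was 2.15 ± 0.43 (SE; edgeR, adjusted p = 0.00788) and rested on PF382: without that line it was 1.15 with an adjusted p of 0.421.

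HOXA11, a posterior HOXA gene, was present untreated in H9 only. H9 had 23 counts untreated and 35 with romidepsin, then 64, 76 and 127 with azacitidine at 50, 125 and 250 nM and 52, 75 and 83 in the combinations. All 6 H9 libraries with azacitidine were above both without. HH had 0 untreated, 1 with romidepsin, 0, 1 and 3 with azacitidine alone, and 1, 8 and 8 in the combinations. In TLOm1 only azacitidine at 500 nM (3 counts) and the combinations at 250 nM (1) and 500 nM (7) gave any, and in PF382 only the combinations at 250 nM (1) and 500 nM (4). Its log2 change with azacitidine at 250 nM was 2.29 ± 0.68 (edgeR, adjusted p = 0.0483), and the call was lost when any 1 of the 4 lines was left out (adjusted p 0.0733 to 0.279).

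With both drugs and azacitidine at 125 nM, 3 of 34 members rose (HOXC8, HOXC10 and HOXD13) and none fell, against 4.4% of genes rising and 2.6% falling. None of the 3 calls was kept in all 4 fits that left out a line.

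With both drugs and azacitidine at 250 nM, 16 of 34 members rose and none fell, against 14.2% of all tested genes rising and 8.76% falling. The median log2 change was 1.45 for the HOX genes and 0.04 for all genes. By cluster, 3 of 11 HOXA, 3 of 9 HOXB, 5 of 7 HOXC and 5 of 7 HOXD members tested rose. The cluster medians were 0.50 in HOXA, 0.61 in HOXB, 2.52 in HOXC and 2.54 in HOXD, and the last was 1.73 with HOXD9 and HOXD10 at their lower bounds. A low-expressed member could pass the filter through the treated libraries alone, so these shares describe the 34 members that passed and not all 39.

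These calls leaned on the shared spread of the 32 libraries and on single lines. Of the 16 calls, 5 were kept without PF382, 8 without HH, 10 without H9 and 12 without TLOm1, and 3 (HOXA11, HOXC8 and HOXC10) were kept in all 4 of these fits. In a fit of only the 8 libraries compared, 0 of the HOX genes and 63 of all genes were called.

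**Figure D3:**
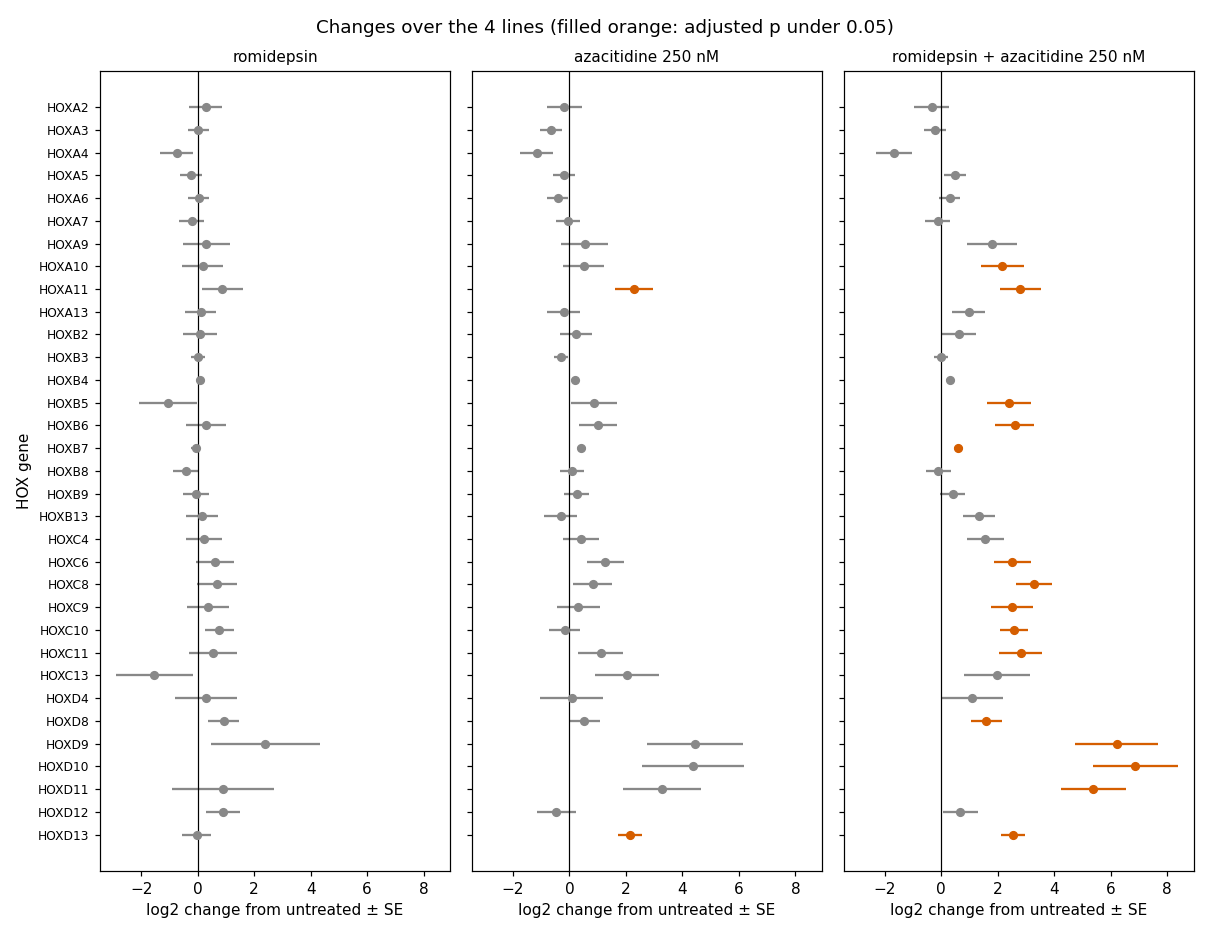
Log2 change from untreated (± SE, horizontal) of the tested members over the 4 lines, for romidepsin, azacitidine at 250 nM and both. Orange points had an adjusted p under 0.05: none with romidepsin, HOXA11 and HOXD13 with azacitidine and members of all 4 clusters with both; HOXD10 has no point for romidepsin because all 8 libraries were at 0.

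The plot of log2 changes shows the widest errors for HOXD9, HOXD10 and HOXD11. These were at or near 0 untreated, so their fitted changes, and the SE derived from them, depend on the prior count. Their counts are the safer reading. The 3 are adjacent posterior genes of HOXD, known from limb development.

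HOXD10 was at 0 in all 4 untreated and all 4 romidepsin libraries. In TLOm1 it had 6, 10 and 19 counts with azacitidine at 125, 250 and 500 nM and 7, 34 and 44 when romidepsin was added. PF382 had 0, 1 and 1 with azacitidine and 4, 5 and 20 with both drugs. HH had 1, 0 and 0 with azacitidine and 4, 12 and 17 with both. H9 stayed at 0 in 8 of 8 libraries. The combination with azacitidine at 250 nM was at least 13.3-fold higher than untreated in TLOm1, 6.19-fold in HH and 1.63-fold in PF382, each against the floor of 3 counts per library. The test over the 4 lines gave an adjusted p of 0.00715 (edgeR), and 3 of 4 lines moved up.

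HOXD9 followed HOXD10 in the lines it appeared in. PF382 had 0 untreated and with romidepsin, 0, 4 and 11 counts with azacitidine at 125, 250 and 500 nM, and 1, 13 and 52 with both drugs. TLOm1 had 0 untreated, 2 with romidepsin, 0, 7 and 14 with azacitidine, and 4, 16 and 35 with both. HH was at 0 without romidepsin at every dose, and at 0, 10 and 7 in the combinations with 50, 125 and 250 nM. H9 was at 0 throughout. The combination at 250 nM was at least 6.24-fold higher than untreated in TLOm1, 4.24-fold in PF382 and 2.55-fold in HH (adjusted p = 0.0107 over the lines, edgeR).

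HOXD11, whose promoter is printed above, had 0 counts in untreated TLOm1 and with romidepsin, 3, 9 and 17 with azacitidine at 125, 250 and 500 nM, and 7, 35 and 44 with both drugs. In HH it had 0 untreated and with romidepsin, 0, 0 and 1 with azacitidine, and 1, 10 and 18 with both. PF382 had 1 untreated, 2 with romidepsin, 0, 5 and 6 with azacitidine and 0, 7 and 17 with both. H9 had at most 3 counts. In TLOm1 and HH the 2 highest libraries were the combinations at the middle and high dose. Over the lines the fitted log2 change at 250 nM was 5.39 ± 1.16 (edgeR, adjusted p = 0.00233).

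HOXD8, which had the most untreated counts of HOXD in PF382, also rose over the lines (1.60 ± 0.54, edgeR, adjusted p = 0.0352). PF382 went from 28 counts untreated to 75 with romidepsin, 70, 96 and 165 with azacitidine alone and 185, 214 and 325 with both drugs, so the 3 combinations were above the other 5 libraries. The other lines had at most 34 counts, and the call was lost without PF382, without HH, without H9 and with DESeq2. HOXD13 rose by 2.54 ± 0.43 (edgeR, adjusted p = 0.00074).

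**Figure D4:**
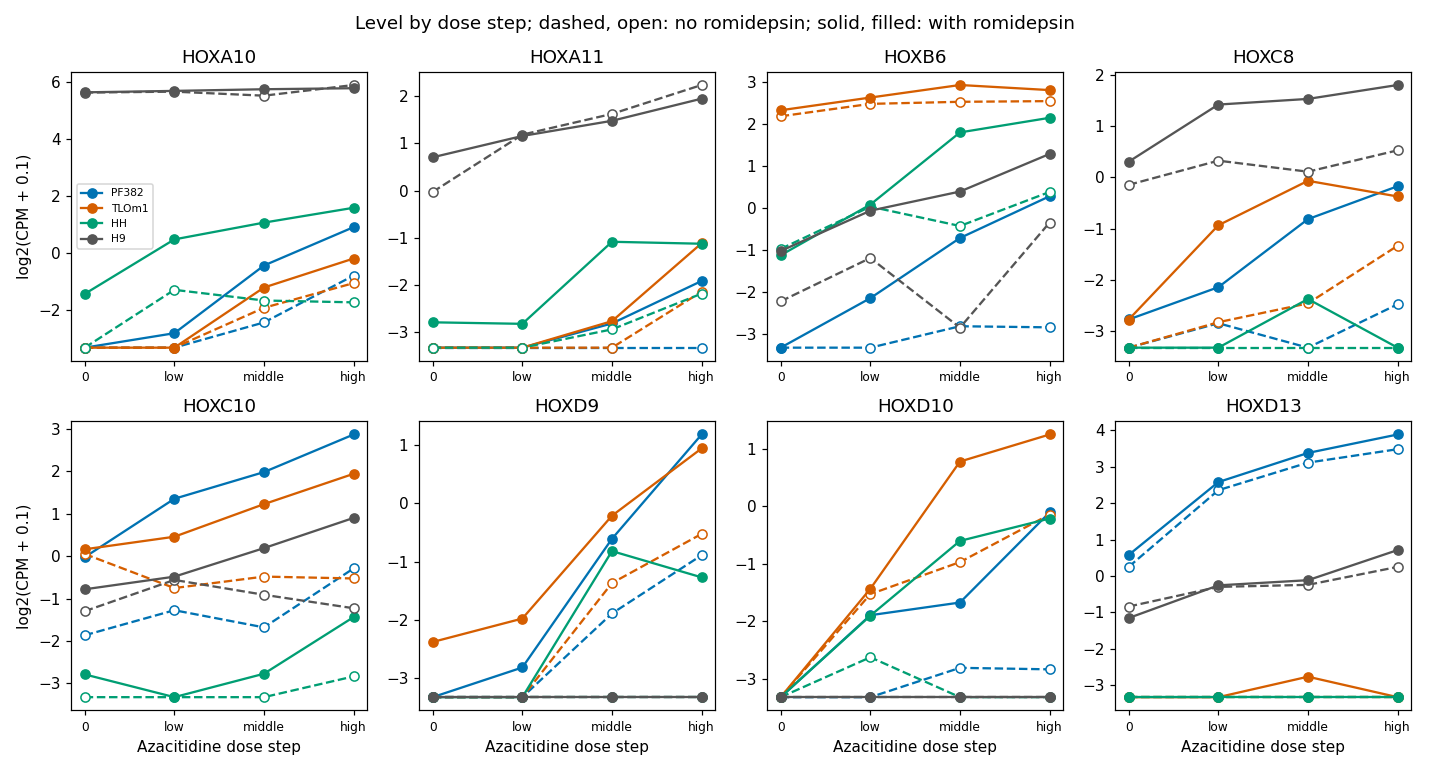
Level of 8 members as log2(CPM + 0.1) against the dose step of azacitidine in each line (low, middle, high), without romidepsin (open, dashed) and with it (filled, solid), 1 library per point. HOXD9 and HOXD10 leave the bottom of the scale in PF382, TLOm1 and HH but not H9, HOXD13 moves in PF382 and H9 alone, and HOXA10 of H9 stays level.

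The HOXC cluster gave 5 of its 7 tested members. HOXC10 rose by 2.58 ± 0.49 on the log2 scale (edgeR, adjusted p = 0.000783) and went up in 4 of 4 lines. PF382 had 4 counts untreated, 19 with romidepsin, 8, 5 and 18 with azacitidine and 58, 90 and 173 with both drugs. TLOm1 had 23 untreated, 22 with romidepsin, 12, 15 and 14 with azacitidine and 33, 47 and 72 with both. H9 had 8 untreated, 11 with romidepsin, 17, 11 and 9 with azacitidine and 15, 29 and 39 with both. In PF382 and TLOm1 the 3 combination libraries were above the other 5. HH had 6 counts in the combination at 250 nM and at most 1 in the others.

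HOXC8, a thoracic patterning gene, was at 0 in untreated PF382, TLOm1 and HH and at 21 counts in H9. In H9 it had 26 with romidepsin, 34, 25 and 37 with azacitidine and 63, 78 and 75 with both drugs. TLOm1 had 1 with romidepsin, 1, 2 and 7 with azacitidine and 11, 18 and 13 with both. PF382 had 1 with romidepsin, 1, 0 and 2 with azacitidine and 3, 11 and 19 with both. In these 3 lines every combination library was above the 5 others, and HH had 2 counts in all. The log2 change was 3.29 ± 0.65 (edgeR, adjusted p = 0.00109).

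HOXC11 had 3 counts in untreated PF382, 8 with romidepsin, 3, 4 and 6 with azacitidine and 30, 41 and 70 with both drugs. TLOm1 had 0 untreated and with romidepsin, 1, 4 and 5 with azacitidine and 3, 7 and 13 with both. HH had 0 untreated and with romidepsin, 1, 1 and 0 with azacitidine and 5, 5 and 9 with both. H9 overlapped, with 10 untreated and 9 to 25 in the treated libraries. The change at 250 nM was 2.81 ± 0.75 (edgeR, adjusted p = 0.01), and in PF382 alone the ratio was 13.4 (95% counting interval 4.26 to 67.4). HOXC6 rose by 2.52 and HOXC9 by 2.51, while HOXC4 (1.56, adjusted p = 0.0914, edgeR) and HOXC13 (1.98, adjusted p = 0.243) were not called.

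In HOXB, HOXB6, HOXB5 and HOXB7 rose, 3 neighbouring central genes. HOXB6 had 10 counts in untreated HH, 8 with romidepsin, 15, 21 and 30 with azacitidine and 23, 73 and 97 with both drugs. H9 had 3 untreated, 9 with romidepsin, 10, 1 and 19 with azacitidine and 21, 34 and 52 with both. PF382 had 0 untreated and with romidepsin, 0, 1 and 1 with azacitidine and 3, 12 and 27 with both. TLOm1 started higher, at 110, and had 107 to 159 in the treated libraries. The 3 lines with low baselines moved most, and HOXB6 changed by 2.60 ± 0.68 (edgeR, adjusted p = 0.00928).

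HOXB5 was at 0 in untreated PF382, HH and H9, and at 19 counts in TLOm1. TLOm1 had 4 with romidepsin, 7, 25 and 28 with azacitidine and 28, 25 and 35 with both drugs. HH had 0 with romidepsin, 1, 14 and 5 with azacitidine and 6, 8 and 17 with both. PF382 and H9 had at most 9 counts, each at its highest combination dose. The log2 change was 2.39 ± 0.78 (edgeR, adjusted p = 0.029).

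HOXB7 was expressed in all 4 lines, and its change was the smallest of the 16 at 0.61 ± 0.16 (edgeR, adjusted p = 0.011). PF382 had 123 counts untreated and with romidepsin, 170, 198 and 226 with azacitidine and 228, 246 and 238 with both drugs. HH had 133 untreated, 117 with romidepsin, 150, 260 and 207 with azacitidine and 191, 223 and 202 with both. H9 had 169 untreated, 163 with romidepsin, 210, 198 and 229 with azacitidine and 214, 238 and 288 with both. TLOm1 was the exception, with 588 untreated and 476 in the combination at 250 nM, a CPM ratio of 0.947 (95% counting interval 0.838 to 1.07).

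In HOXA, HOXA11 and HOXA10 rose over the lines. HOXA10 went from 0 counts to 31, 43 and 65 in HH with both drugs, with 6 for romidepsin and 5, 7 and 5 for azacitidine. PF382 had 0, 2 and 12 with azacitidine and 1, 15 and 43 with both, and TLOm1 had 0, 4 and 9 with azacitidine and 0, 7 and 15 with both. In H9, where the gene was already high, the 8 libraries ran from 1145 to 1651. The combination at 250 nM was at least 23.7-fold higher than untreated in HH and 4.89-fold in PF382, and the ratio in H9 was 1.11 (95% counting interval 1.03 to 1.20). Over the lines HOXA10 changed by 2.16 ± 0.76 (edgeR, adjusted p = 0.0443), a call lost without PF382, TLOm1 or HH.

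HOXA11 changed by 2.81 ± 0.71 (edgeR, adjusted p = 0.00715). In the combination at 250 nM, PF382 and TLOm1 had 1 count each, under the floor of 3.

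The HOXA members most expressed in PF382 and TLOm1 did not pass the test. HOXA5 had 53 counts in untreated PF382 and 56 in the combination at 250 nM (0.50 ± 0.39 over the lines, edgeR, adjusted p = 0.381). HOXA7 had 572 in untreated TLOm1 and 411 in that combination (-0.12 ± 0.44, adjusted p = 0.88, edgeR). HOXA9, the leukemia-associated posterior gene, had 80 untreated and 108 with both drugs at 250 nM in H9, and 0 to 10 in PF382. HOXA4 had 38 counts untreated against 4 with both drugs in H9, 17 against 8 in PF382, 5 against 2 in TLOm1 and 2 against 1 in HH. It missed the threshold (-1.67 ± 0.62, edgeR, adjusted p = 0.0555).

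Against azacitidine alone at the same 250 nM, the combination had 2 members higher, HOXC10 (2.76 ± 0.50, edgeR, adjusted p = 0.00392) and HOXC8 (2.46 ± 0.60, adjusted p = 0.02), and none lower, where 3.43% of genes were higher and 2.24% lower. HOXC10 kept its call without each line in turn, and HOXC8 lost it without PF382, TLOm1 or HH. Against romidepsin alone it had 12 higher and none lower, where 8.92% of genes were higher and 5.21% lower. These 12 were HOXB5, HOXB6, HOXB7, HOXC6, HOXC8, HOXC9, HOXC10, HOXC11, HOXD9, HOXD10, HOXD11 and HOXD13, and none was called in all 4 fits that left out a line. Leaving out PF382 kept 4 of the 12, leaving out TLOm1 kept 6, and leaving out HH or H9 kept 7. Departure from additivity of the log2 changes called 0 of 34, as it did over all genes (0%), with 2 members (HOXB5 and HOXC10) at an unadjusted p under 0.05 and 0 called by DESeq2 or limma-voom.

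Across the 3 azacitidine doses of each line, with 1 slope shared by lines and by libraries with and without romidepsin, 12 of 34 members rose with each doubling of the dose and none fell, against 16.6% of genes rising and 12.3% falling. They were HOXA11, HOXB4, HOXB5, HOXB6, HOXC6, HOXC10, HOXC13, HOXD8, HOXD9, HOXD10, HOXD11 and HOXD13. The steepest was HOXD9, at 1.76 ± 0.28 log2 per doubling (edgeR, adjusted p = 0.00034), and HOXD11 gained 1.42 ± 0.24 (adjusted p = 0.000199). HOXB4, at 0.08 ± 0.03 (edgeR, adjusted p = 0.0497), was the shallowest. HOXA11, HOXB5, HOXD9, HOXD10 and HOXD11 kept the call without each line in turn, and 6 of the 12 calls were kept without PF382. In libraries with azacitidine alone, 1 of the 12 was called (HOXD9). The dose libraries of the lines stood in for replicates in this fit, so its p-values do not measure the spread between cultures. HOXD9 and HOXD10 were at 0 throughout in H9, so their shared slopes do not describe that line.

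Fitted line by line, with each romidepsin library matched to its partner at the same azacitidine dose, romidepsin called more members than over the lines together. In these fits the azacitidine doses stood in for replicates. The p-values of single lines therefore do not measure the spread between cultures. The test of equal effects in the 4 lines called 14 of 34 members, a share near that of all genes (33%). In PF382, 19 members were higher with romidepsin and none lower (19.1% of genes higher, 11.6% lower). HH had 12 higher and none lower (14% and 13.7%). TLOm1 had 6 higher and 3 lower (17.1% and 15.5%), and H9 had 4 higher and none lower (3.64% and 0.831%).

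**Figure D5:**
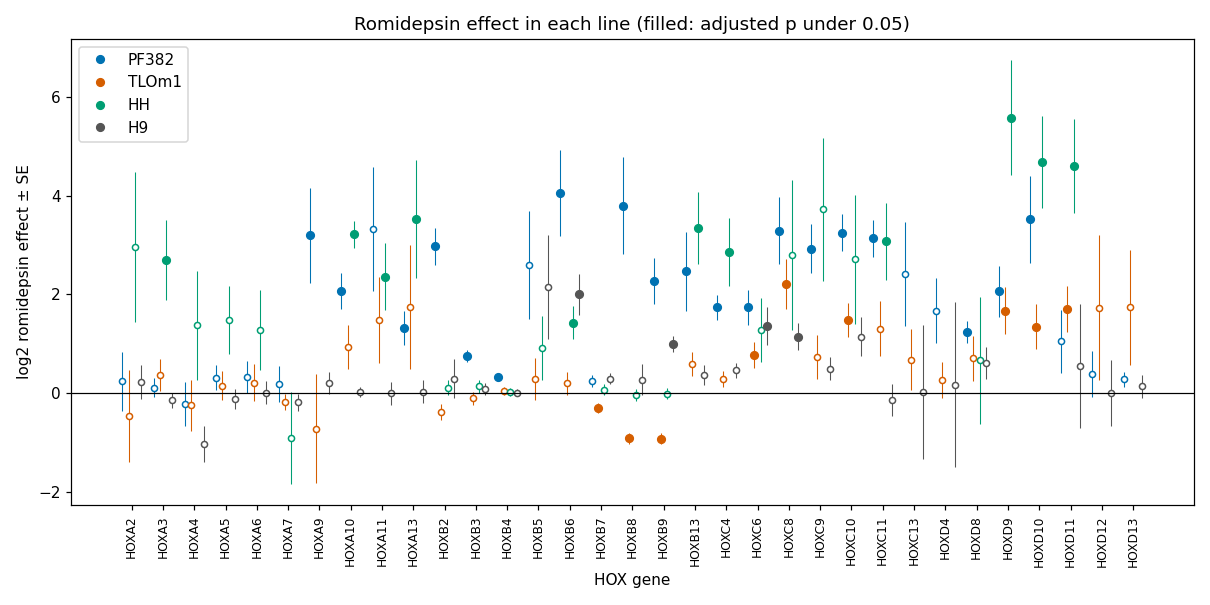
Romidepsin effect on the tested members in each line, as log2 change (± SE) over the 4 pairs of libraries matched on azacitidine dose; filled points had an adjusted p under 0.05, and members at 0 in all libraries of a line have no point. PF382 and HH points lie mostly above 0, and HOXB7, HOXB8 and HOXB9 of TLOm1 below it.

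The plot of romidepsin effects by line shows HOXB9 on both sides of 0. HOXB9 fell in TLOm1 by 0.92 ± 0.11 on the log2 scale (edgeR, adjusted p = 9.03e-06) and rose in PF382 by 2.27 ± 0.47 (adjusted p = 0.00115, edgeR) and in H9 by 0.99 ± 0.16 (adjusted p = 0.000714, edgeR). Its TLOm1 counts were 4296, 4281, 4748 and 5868 without romidepsin, from no azacitidine to 500 nM, and 2437, 3167, 2221 and 1727 with it. All 4 libraries with romidepsin were below all 4 without. H9 had 81, 139, 93 and 167 without and 154, 193, 235 and 274 with romidepsin, and PF382 had 4, 1, 5 and 8 against 7, 8, 17 and 57, where the call was lost without the pair at 500 nM. HH was level, at 2112 to 4086 without and 2273 to 3008 with romidepsin, or 102 to 131 CPM over all its libraries. The effects differed between lines (edgeR, adjusted p = 1.76e-06).

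HOXB8, the neighbour of HOXB9, fell by 0.92 ± 0.12 in TLOm1 (edgeR, adjusted p = 2.08e-05), from 406, 279, 299 and 314 counts without romidepsin to 196, 194, 143 and 113 with it. These ranges did not overlap. In PF382 it had 0 counts in the 4 libraries without romidepsin and 0, 1, 1 and 5 with it. HOXB7 fell in TLOm1 by 0.30 ± 0.10 (edgeR, adjusted p = 0.0277), a call lost without the pair at 0, 250 or 500 nM. In PF382, HOXB3 rose by 0.76 ± 0.12 (edgeR, adjusted p = 7.86e-05), with 346, 386, 305 and 414 counts without romidepsin and 367, 604, 651 and 840 with it. The last 3 were above all 4 without. HOXB2 rose by 2.97 ± 0.38 in PF382 (edgeR, adjusted p = 5.53e-06), and the other lines were not called.

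The PF382 calls included 6 HOXC members, from HOXC6 at 1.73 ± 0.36 to HOXC8 at 3.29 ± 0.68 (edgeR). HOXC10 rose there by 3.25 ± 0.37 (edgeR, adjusted p = 2.04e-06) and in TLOm1 by 1.49 ± 0.35 (adjusted p = 0.0026, edgeR). In HH the calls included HOXA3, HOXA10, HOXA11, HOXA13, HOXB6, HOXB13, HOXC4, HOXC11, HOXD9, HOXD10 and HOXD11. HOXA10 rose there by 3.21 ± 0.28 (edgeR, adjusted p = 2.46e-07). HOXA3 had at most 3 counts and HOXA13 at most 4 in any HH library, at or near the floor, so these calls are weak. H9 gained HOXB6, HOXB9, HOXC6 and HOXC8. In PF382, 12 of the 19 calls were kept without the pair at 500 nM. Only 5 of the 12 HH calls were kept without its pair of libraries at 250 nM and 7 without that at 125 nM. In TLOm1, 4 of 9 were kept without the pair at 500 nM and 5 without that at 250 nM, and in H9 1 of 4 without the pair at 250 nM or that at 125 nM and 2 without that at 50 nM.

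The azacitidine effect in each line, over its 3 doses, called fewer members. Here too the treatments of a line stood in for replicates. PF382 had 5 higher (HOXB7, HOXC4, HOXC9, HOXD8, HOXD13) and none lower, against 5.94% of genes higher and 2.39% lower. TLOm1 had 5 higher (HOXC8, HOXC9, HOXC11, HOXD10, HOXD11) and none lower, against 11% and 7.68%. HH had 3 higher (HOXB4, HOXB5, HOXB7) and none lower, against 4.07% and 1.8%. H9 had none higher and 1 lower, HOXB3, against 2.81% and 3.06%. Equal effects were refused for 5 members (HOXB3, HOXB4, HOXB8, HOXC4, HOXC9), a share near that of all genes (10.7%); without H9 1 of the 5 was called (HOXC4), and without TLOm1 or HH 3. Without the library pair at the lowest dose the counts were 10 in PF382, 7 in HH and 3 in H9.

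HOXC4 in PF382 had 2 counts untreated and 1 with romidepsin, 8, 19 and 40 with azacitidine at 125, 250 and 500 nM, and 42, 74 and 107 with both drugs. The azacitidine effect there was 4.64 ± 0.73 (edgeR, adjusted p = 0.000354), and its effects differed between lines (adjusted p = 0.00322, edgeR). HOXB3 in H9 had 541 and 530 counts without azacitidine, 427, 314 and 322 with it and 412, 399 and 225 with both drugs, so the 6 treated libraries were below the other 2. It fell by 0.73 ± 0.16 on the log2 scale (edgeR, adjusted p = 0.00767). HOXB4 in HH had 191 and 182 counts without azacitidine and 165 to 403 with it, a change of 0.59 ± 0.12 (edgeR, adjusted p = 0.004). Depth widened this range, as the HH totals were 16175077 with azacitidine at 50 nM and 32496676 at 125 nM. Scaled, HOXB4 was 7.86 CPM untreated, 8.20 with romidepsin, 13.7 with azacitidine at 250 nM and 13.3 with both drugs.

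Other genes of the HOX system were counted in the combination at 250 nM, beside 14.2% of all genes rising and 8.76% falling. Of 11 TALE cofactors 2 rose and 2 fell, with a median log2 change of 0.34. MEIS3 had 0 counts in untreated PF382, 9 in TLOm1, 0 in HH and 67 in H9, and 19, 143, 96 and 1096 with both drugs. It was higher in 4 of 4 lines by 4.99 ± 0.81 on the log2 scale (edgeR, adjusted p = 0.000209). MEIS1 rose by 0.61 ± 0.20 (adjusted p = 0.0336, edgeR), PBX2 fell by 0.48 ± 0.09 and TGIF2 fell by 0.43 ± 0.10.

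Of 30 Polycomb genes 2 rose and 6 fell (median 0.04), and of 19 Trithorax and MLL complex genes 1 rose and 5 fell (median -0.10). Over all genes 14.2% rose and 8.76% fell. PCGF2, a subunit of Polycomb repressive complexes, rose by 1.56 ± 0.30 (edgeR, adjusted p = 0.000954), with 409, 139, 83 and 696 counts untreated and 1397, 274, 491 and 1063 with both drugs in PF382, TLOm1, HH and H9. PCGF3 fell by 0.53 ± 0.11, PHC3 by 0.36 ± 0.08 and PHF19 by 0.53 ± 0.15. KDM6B, a demethylase that removes the Polycomb mark, fell by 0.73 ± 0.10 (edgeR, adjusted p = 5.07e-05), also with azacitidine alone at 250 nM. KDM6A fell by 0.30 ± 0.07 and DOT1L by 0.39 ± 0.09.

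None of 6 tested noncoding RNAs of the HOX clusters was called. Of 12 tested non-HOX genes beside the clusters 4 rose and 1 fell (median 0.21), among them PRAC, next to HOXB13, which had 2 counts in untreated PF382 and 23 with both drugs, and 0 and 11 in TLOm1. Of 13 retinoic acid pathway genes 4 rose and none fell (median 0.64), led by CYP26B1, a retinoic acid hydroxylase, at 2.39 ± 0.43 (edgeR, adjusted p = 0.000507). It had 97 counts in untreated PF382 and 23 in H9, and 479 and 121 with both drugs. Of 48 other homeobox genes 18 rose and 1 fell, with a median of 1.38 beside the 1.45 of the HOX genes. The shares over all genes were again 14.2% rising and 8.76% falling.

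Markers of other cell types moved in the same comparison, where 14.2% of all genes rose. Of these, 2 of 5 tested epithelial, 2 of 6 fibroblast, 2 of 6 B-cell and 1 of 4 myeloid markers rose. In PF382 the summed epithelial level was 5.06 CPM untreated and at most 153 over the 8 libraries, and the summed fibroblast level was 6.50 to 63.0. EPCAM, KRT19, CDH1 and KRT5 were under 10 counts in untreated PF382. The immature T-cell list of PF382 ran from 473 to 1987 CPM, with CD1A and CD1E called lower over the lines. Both were under 10 counts in untreated TLOm1, HH and H9, where the whole list summed to 1.67, 0.165 and 0.652 CPM. These calls therefore describe PF382 more than the other lines. The part of these markers in the HOX results was not tested.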

How the data were processed

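The members and gene lists were chosen with earlier results of these data known. Each library came with a table of raw read counts by gene symbol, which the authors deposited and which was used unchanged. Stranded mRNA libraries were made with a TruSeq kit, per the labels' protocols, which mention poly(A) selection as well as ribosomal depletion. STAR, DESeq2, limma and GRCh37.p2 are named per the submitters' processing notes; which program counted reads, with which annotation and strandedness, is not given in the sources used here. With strandedness unknown, overlapping and antisense genes may share reads. Doses of the combinations carry no unit and were read as nM.

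Groups were compared with edgeR 4.0.16 (limma 3.58.1, R 4.3.3): TMM scaling, edgeR's low-count filter (minimum 10 counts, total 15), robust quasi-likelihood F tests with cell line as a term over all 32 libraries, and Benjamini-Hochberg adjustment over 17801 genes. A member was called at an adjusted p under 0.05. Each SE is the absolute log2 change divided by the square root of the F statistic, and edgeR does not give it directly. Dose slopes and line effects were separate fits, with 15, 12 and 20 residual degrees of freedom. DESeq2 1.42.0, limma-voom, other filters and scaling, and fits without each line or library pair were alternatives. The fits were tested on simulated data. The groups share cell lines: in 60 of 60 same-line pairs, deviations from group means correlated, at 0.86 to 0.973. Floors of 3 counts and 95% intervals (exact Poisson) cover counting error only. Of the members called, per-library values were given for the 3 per cluster with the largest log2 change at azacitidine 250 nM, alone or combined, and for the member with the highest untreated CPM in each cluster and line; 1 HOXA member is counted in the totals but not reported by itself here. Lists gave up to 4 called genes with the smallest adjusted p.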

Additional observations from a re-analysis of the deposited data

Results flagged for a closer look

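In the untreated libraries, 1 line stood far from the other 3 for 3 of the members named. HOXA10 was at 49.8 CPM in H9, HOXC6 at 1.87 CPM in TLOm1 and HOXD4 at 1.10 CPM in TLOm1. Only members that were the highest of their cluster in some untreated line were looked at. HOXA10 and HOXD4 had 0 counts in the other untreated lines. The flags therefore describe these values, and no chance rate can be given for them.

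Romidepsin effects differed between the 4 lines, by edgeR's test of equal effects, for 14 of 34 members, where 33% of all genes were called. The romidepsin dose was not the same in all 4 lines, so line and dose cannot be told apart. In HOXA the adjusted p was 2.17e-06 for HOXA10, 0.0225 for HOXA11 and 0.0251 for HOXA13. In HOXB it was 4.47e-05 for HOXB2, 0.00374 for HOXB3, 0.00277 for HOXB6, 0.0138 for HOXB7, 0.000327 for HOXB8, 1.76e-06 for HOXB9 and 0.0124 for HOXB13. In HOXC it was 0.00123 for HOXC4, 0.00902 for HOXC9, 0.0223 for HOXC10 and 0.000456 for HOXC11. For HOXA10, HOXA11 and HOXA13 the H9 estimate was near 0 while HH was called higher. HOXA13 was also called higher in PF382, where it had up to 30 counts and lost the call without the pair at 500 nM. In HH, HOXA11 had at most 8 counts in any library and HOXA13 at most 4.

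Azacitidine effects differed between the lines for 5 of 34 members, where 10.7% of all genes were called and 1 of the 5 was called without H9. The doses of PF382 and TLOm1 were not those of HH and H9, so line and dose range cannot be told apart. The adjusted p (edgeR) was 0.0106 for HOXB3, 0.0210 for HOXB4, 0.0446 for HOXB8, 0.00322 for HOXC4 and 0.0465 for HOXC9.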

How the results depend on the processing

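Line was a term in every main fit. Without that term (no replicate block), the HOX counts fell from 16 to 0 for the combination at 250 nM, from 12 to 0 against romidepsin, from 3 to 0 at 125 nM, and from 2 to 0 for azacitidine at 250 nM and for the combination against it. Fits of only the 8 libraries compared also gave 0 for these 5. For azacitidine at 250 nM, DESeq2 gave 0, and limma-voom and no low-count filter gave 1 each. Limma-voom gave 7 for the combination at 125 nM, 2 for azacitidine in H9 and 3 for unequal azacitidine effects, as did no low-count filter for the last. DESeq2 gave 4 for the combination against azacitidine. The dose slope called 1 with azacitidine alone, and 7 with additive terms, an alternative chosen after seeing the data. Scaled by TMM, untreated HOXB9 was 122 CPM in HH and 183 CPM in TLOm1.

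Leaving out 1 line at a time gave 5 to 15 HOX genes for the combination at 250 nM, 4 to 8 against romidepsin, 1 to 2 against azacitidine, 0 to 4 at 125 nM, 0 to 1 for azacitidine at 250 nM, 6 to 13 for the slope (6 without PF382), 10 to 13 for unequal romidepsin effects and 1 to 4 for unequal azacitidine effects. Leaving out 1 dose gave, for romidepsin, 13 to 19 in PF382, 4 to 9 in TLOm1, 5 to 10 in HH and 1 to 3 in H9, and for azacitidine 4 to 10, 4 to 6, 2 to 7 and 1 to 3. None of the called changes that were checked reversed its direction under the alternatives run. Changes named but not called were not checked, and tests of equal effects have no direction. The cause of these moves was not tested. A member at 0 in a library could still be present at up to 3 counts, so such members cannot be called absent.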
